A study of Rattus norvegicus with 6 samples.

Results

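The 10 chemokine genes Cxcl9, Cxcl10, Cxcl11, Cxcl12, Cxcl16, Cx3cl1, Ccl2, Ccl5, Ccl19 and Cxcl1 were followed in kidney cortex (the outer zone, rich in proximal tubules and glomeruli) of male Sprague-Dawley (Crl:CD(SD)) rats. They were listed by name, under a rule that uses no measured value but was written with earlier results of these data known, out of 12269 named genes and 34417 items tested in all. Of the 6 rats, 3 were given phenolphthalein, a pH indicator and former laxative, at 1000 mg/kg/day for 4 weeks, and 3 were given the vehicle, corn oil, for the same time. Purchase was at 5 weeks of age, and the RNA of each rat was hybridised to 1 single-colour Agilent array. The comparison asks whether any of these genes differs in the cortex after phenolphthalein. A level below is the log2 of the spot intensity minus the log2 of the 75th percentile of that array, so 0 is the 75th percentile, and a difference is phenolphthalein minus vehicle on that log2 scale.

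Chemokines are small secreted proteins that steer leukocytes through G protein-coupled receptors on the cells they attract. Cxcl9, Cxcl10 and Cxcl11 are induced by interferons and share the receptor Cxcr3 of activated T and natural killer cells, while Ccl2, Ccl5, Ccl19 and Cxcl1 draw monocytes, T cells, naive T and dendritic cells, and neutrophils, each through receptors of its own. Cxcl12 is made constitutively by stromal cells, and Cxcl16 and Cx3cl1 are anchored in the membrane until a protease sheds them. In the kidney, chemokines are made by tubular, endothelial and glomerular cells and by resident and invading leukocytes.

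All 10 genes had a probe well above background on all 6 arrays, and 14 probes measured them in total. None of the 10 was called higher or lower with phenolphthalein. The background was the same, as 0 of 34417 items, 0%, passed in either direction at an adjusted p of 0.05 (limma, smallest adjusted p = 0.307), and 1346 higher and 1708 lower items had an unadjusted p under 0.05. At that unadjusted threshold 0 of the 10 were higher, where 3.91% of all items were, and 0 were lower, where 4.96% were. The groups overlapped in every one of the 10. Over all items, 6.59% had all phenolphthalein arrays above all vehicle arrays and 9.11% had them all below. The mean was lower with phenolphthalein for 6 of the 10 and higher for 4, with a median difference of -0.15 beside -0.02 over all items, of which 54.2% had a lower mean.

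The arrays of 2 animals stood at the ends of most of these ranges. Vehicle replicate 2 gave the highest value for 8 of the 10 genes, as it did for 13.5% of all items, and phenolphthalein replicate 1 gave the lowest for 5 of the 10, as it did for 26.5% of all items. Vehicle replicate 2 also had the smallest share of probes well above background, 64.8%, where the other arrays had 69.4% to 72.1%. Phenolphthalein replicate 1 lay alone on its slide. Phenolphthalein replicates 2 and 3 shared a slide, and all vehicle arrays shared another, so effects of slide and of treatment cannot be told apart. Correlations between arrays over all items lay between 0.987 and 0.992. The part of slide and array quality in the values below was not tested, and the differences and list medians are also given without these 2 arrays. They were picked after seeing the data, as the ends of these genes' ranges, so leaving them out raises most of the 10 differences by construction and such values are a description with no test.

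The promoters of the genes for the Cxcr3 ligands are shown because these genes are direct neighbours on rat chromosome 14. Their order is Cxcl11, Cxcl10, Cxcl9. Cxcl9 and Cxcl10 shared their highest and their lowest array, and Cxcl11 had others. The 250 bases before each start site come from RefSeq on the GRCr8 build, all on the plus strand, at chr14:16006916-16007165 for Cxcl9, chr14:15988816-15989065 for Cxcl10 and chr14:15973478-15973727 for Cxcl11. Capitals mark matches, on either strand, to an interferon-stimulated response element (GAAANNGAAA), a gamma-activated site (TTCNNNGAA) or an NF-kB site.
Cxcl9: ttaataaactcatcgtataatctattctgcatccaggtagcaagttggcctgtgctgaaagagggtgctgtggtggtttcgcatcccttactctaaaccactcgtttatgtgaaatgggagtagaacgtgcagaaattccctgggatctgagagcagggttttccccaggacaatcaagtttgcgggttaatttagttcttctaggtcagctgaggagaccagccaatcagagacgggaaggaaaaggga
Cxcl10: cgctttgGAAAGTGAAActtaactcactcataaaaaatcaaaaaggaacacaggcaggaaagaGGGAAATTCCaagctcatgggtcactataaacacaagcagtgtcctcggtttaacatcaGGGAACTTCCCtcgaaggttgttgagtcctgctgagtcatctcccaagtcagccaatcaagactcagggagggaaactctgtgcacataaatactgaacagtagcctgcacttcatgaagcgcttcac
Cxcl11: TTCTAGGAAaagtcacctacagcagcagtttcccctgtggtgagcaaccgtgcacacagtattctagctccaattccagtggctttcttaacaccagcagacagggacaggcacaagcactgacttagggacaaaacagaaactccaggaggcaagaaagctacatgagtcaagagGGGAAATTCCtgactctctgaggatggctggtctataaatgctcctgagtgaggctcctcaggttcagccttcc

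Cxcl10 held an interferon-stimulated response element match starting 243 bases before the start site and NF-kB matches starting 187 and 128 bases before it. One more NF-kB match in Cxcl10 started at 127 bases and overlapped the one at 128. Cxcl11 held a gamma-activated site match at 250 bases and an NF-kB match at 74 bases, and the Cxcl9 window held no match. The table had windows for 8 of the 10 genes, and Ccl2 and Ccl5 are only named here. Among the 8, the response element was found in Cxcl10 and Ccl19, the gamma-activated site in Cxcl11 alone, and the NF-kB site in Cxcl10, Cxcl11 and Cxcl1. Of 33469 RefSeq windows of this length, 3.41% held the response element, 7.67% the gamma-activated site and 6.33% the NF-kB site. A match is a stretch of letters and no evidence of binding in these animals.

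Cxcl9, the interferon-gamma-induced ligand of Cxcr3, had the widest spread between animals of the 10. Its level was -4.52, -3.14 and -3.19 in the phenolphthalein arrays (replicates 1, 2 and 3), against -2.97, -1.58 and -3.77 in the vehicle arrays. The lowest value was phenolphthalein replicate 1, the highest was vehicle replicate 2, and vehicle replicate 3 lay below phenolphthalein replicates 2 and 3. The mean difference was -0.85 (SE 0.60, 95% interval -2.27 to 0.58, limma adjusted p = 0.715), less than the 2.18 that separated the highest from the lowest vehicle animal. Leaving out any 1 array gave -1.34 to -0.25, always below 0, and normexp background correction of all 6 arrays gave -0.51. The difference was 0.20 without both end arrays.

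Cxcl10, which binds the same receptor and is induced by interferons of both types and by NF-kB, followed a like order. It stood at -0.79, 0.50 and 0.36 in phenolphthalein and at 0.36, 1.25 and 0.05 in vehicle. Phenolphthalein replicates 2 and 3 thus lay inside the vehicle range, and phenolphthalein replicate 1 lay below it. The difference was -0.53 (SE 0.42, 95% interval -1.52 to 0.46, limma adjusted p = 0.737). It was -0.78 to -0.13 with any 1 array left out, and 0.22 without both end arrays.

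Cxcl11, the remaining Cxcr3 ligand, did not show that order. Its level was -0.05, -0.53 and -0.18 in phenolphthalein, against -0.22, -0.10 and -0.54 in vehicle. Phenolphthalein replicate 1, the lowest array for Cxcl9 and Cxcl10, was the highest for Cxcl11. The groups had nearly the same mean, -0.25 ± 0.24 in phenolphthalein and -0.29 ± 0.22 in vehicle (SD, 3 animals each), a difference of 0.03 (95% interval -0.35 to 0.41, limma adjusted p = 0.965). Its sign turned when phenolphthalein replicate 1 (-0.07), phenolphthalein replicate 3 (-0.0034) or vehicle replicate 3 (-0.09) was left out.

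**Figure D1:**
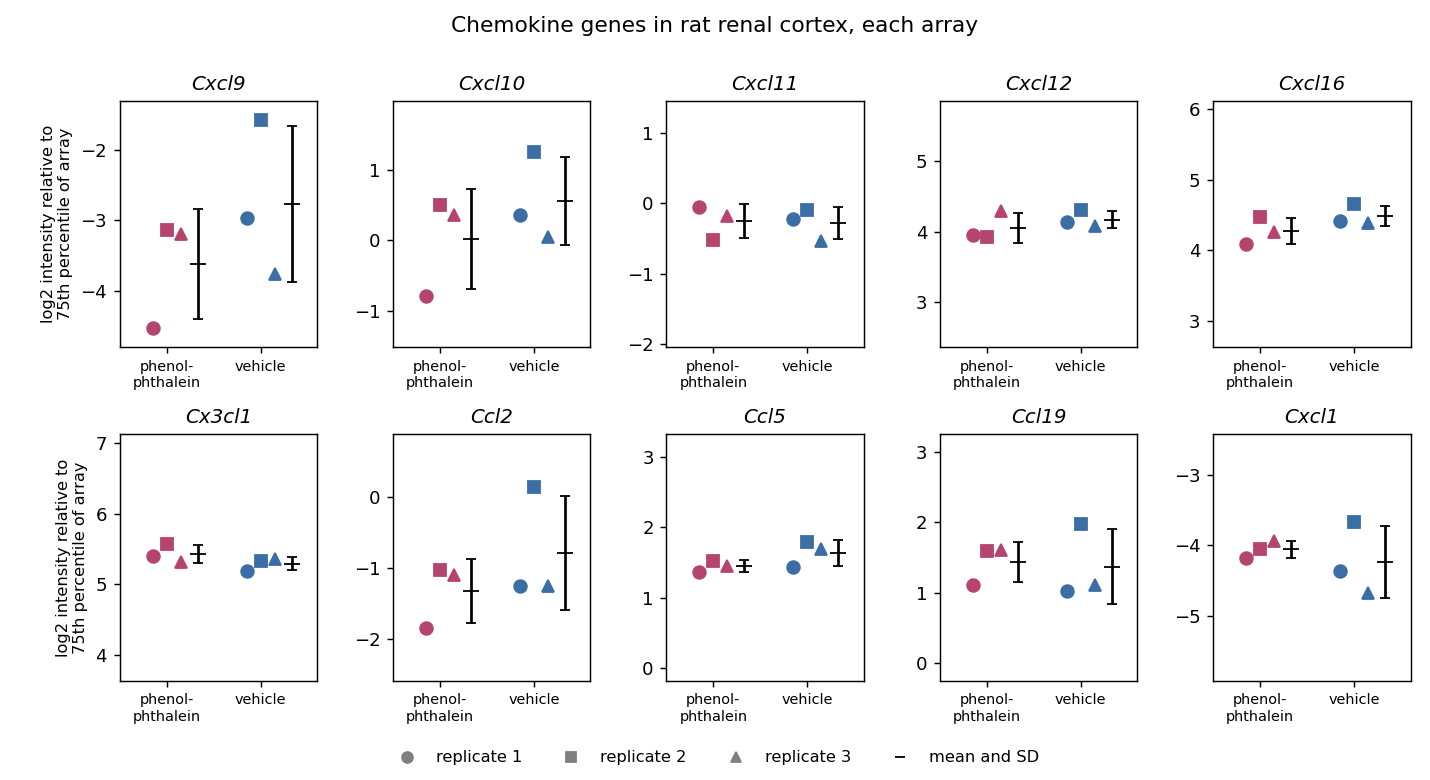
Level of each chemokine gene on each array, as log2 intensity relative to the 75th percentile of the array (vertical axes, all spanning the same number of log2 units), with phenolphthalein left of vehicle, markers for the replicates, and black marks for the mean and SD of 3 animals. The groups overlap in all 10 panels, and vehicle replicate 2 is the highest point for 8 of the 10 genes.

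Cxcl12, the constitutive ligand of Cxcr4 and of the scavenging receptor Ackr3, varied little. It stood at 3.95, 3.92 and 4.29 in phenolphthalein and at 4.13, 4.30 and 4.08 in vehicle. Phenolphthalein replicates 1 and 2 lay below all vehicle arrays, while phenolphthalein replicate 3 was next to the highest. The difference was -0.12 (SE 0.11, 95% interval -0.39 to 0.15, limma adjusted p = 0.785). A further probe of the same transcript gave -0.10, and a probe annotated to another RefSeq transcript of Cxcl12 gave -0.02. The highest array of that last probe was vehicle replicate 1, at 3.41, in place of vehicle replicate 2. The first probe gave -0.24 to -0.05 with any 1 array left out and -0.0013 without both end arrays.

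Cxcl16, a membrane-anchored chemokine that also takes up oxidised lipoprotein and is read by Cxcr6, had the smallest p of the 10. Its level was 4.10, 4.47 and 4.27 in phenolphthalein, against 4.42, 4.65 and 4.39 in vehicle. Phenolphthalein replicates 1 and 3 lay below all vehicle arrays and phenolphthalein replicate 2 lay between them. The difference was -0.21 (SE 0.11, 95% interval -0.48 to 0.05, limma adjusted p = 0.634). With any 1 array left out it was -0.31 to -0.12, and without both end arrays it was -0.04.

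Cx3cl1, the other membrane-anchored chemokine, known as fractalkine and read by Cx3cr1 on monocytes and macrophages, had a higher mean with phenolphthalein. It stood at 5.40, 5.57 and 5.32 in phenolphthalein and at 5.19, 5.32 and 5.36 in vehicle. Phenolphthalein replicate 3 was level with vehicle replicate 2, and phenolphthalein replicate 2 was the highest array. The difference was 0.14 (SE 0.08, 95% interval -0.05 to 0.33, limma adjusted p = 0.651). Its dimmer probe gave 0.27 (limma adjusted p = 0.605 in a fit with every probe as an item), with vehicle replicate 3 at 0.65 inside the phenolphthalein range of 0.63 to 0.74. Cx3cl1 was the one gene of the 10 with a higher mean under all 19 alternatives, though several of these cannot change the difference. Leaving out any 1 array gave 0.07 to 0.20. Without both end arrays the value was 0.17.

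Ccl2, the main attractant of monocytes through Ccr2, had the same end arrays as Cxcl9 and Cxcl10. Its level was -1.84, -1.03 and -1.10 in phenolphthalein, against -1.26, 0.15 and -1.25 in vehicle. Vehicle replicate 2 lay 1.40 above the mean of the other vehicle arrays, and phenolphthalein replicates 2 and 3 lay above those 2 vehicle arrays. The difference was -0.54 (SE 0.41, 95% interval -1.51 to 0.44, limma adjusted p = 0.732). With any 1 array left out it was -0.77 to -0.07, nearest to 0 without vehicle replicate 2, and without both end arrays it was 0.19.

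Ccl5, a T cell and monocyte attractant made by T cells and by stimulated tissue cells, differed over a narrower range. It stood at 1.36, 1.53 and 1.46 in phenolphthalein and at 1.43, 1.79 and 1.70 in vehicle. Vehicle replicate 1 lay among the phenolphthalein arrays, and the other vehicle arrays lay above them. The difference was -0.19 (SE 0.10, 95% interval -0.44 to 0.06, limma adjusted p = 0.642), and the second probe gave -0.16. Any 1 array left out gave -0.29 to -0.12, and -0.29 came without vehicle replicate 1, where the groups no longer overlapped. It was -0.07 without both end arrays.

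Ccl19, which guides Ccr7-bearing T cells and dendritic cells into lymphoid tissue, was at 1.103, 1.59 and 1.61 in phenolphthalein, against 1.02, 1.98 and 1.11 in vehicle. Vehicle replicate 2 was the highest array and the other vehicle arrays were close to phenolphthalein replicate 1. The difference was 0.06 (SE 0.27, 95% interval -0.58 to 0.70, limma adjusted p = 0.961). Its sign turned when phenolphthalein replicate 2 (-0.02), phenolphthalein replicate 3 (-0.03), vehicle replicate 1 (-0.11) or vehicle replicate 3 (-0.07) was left out, and was 0.37 without vehicle replicate 2 and 0.53 without both end arrays.

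Cxcl1, a neutrophil attractant read by Cxcr2, was at -4.17, -4.05 and -3.93 in phenolphthalein, against -4.37, -3.67 and -4.67 in vehicle. The phenolphthalein arrays lay close together, within 0.24, and the vehicle arrays lay on both sides of them, 1.00 apart. The difference was 0.18 (SE 0.26, 95% interval -0.45 to 0.81, limma adjusted p = 0.863), 0.06 with normexp background correction, -0.04 to 0.47 with any 1 array left out, and 0.53 without both end arrays. Cxcl1 and Cxcl9 were the genes nearest to the dimmest spot well above background on an array, at least 1.53 and 1.58 log2 units above it.

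**Figure D2:**
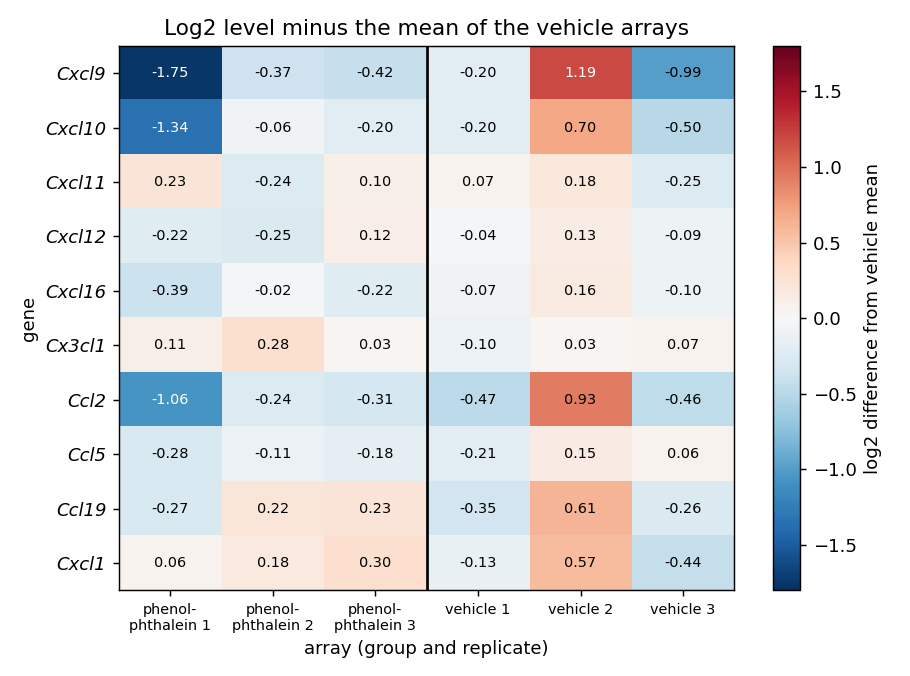
Log2 level of each gene (rows) on each array (columns, phenolphthalein left of the black line, vehicle right of it) minus the mean of the vehicle arrays, with blue for lower and red for higher. Vehicle replicate 2 is above the vehicle mean for every gene, from 0.03 for Cx3cl1 to 1.19 for Cxcl9, and phenolphthalein replicate 1 is lowest for Cxcl9 (-1.75), Cxcl10 (-1.34) and Ccl2 (-1.06).

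Averaged over the 10 genes, the deviation from each gene's vehicle mean was -0.49, -0.06 and -0.05 in phenolphthalein replicates 1, 2 and 3 and -0.17, 0.47 and -0.30 in vehicle replicates 1, 2 and 3. Phenolphthalein replicates 2 and 3 thus lay within the range of the vehicle arrays, and phenolphthalein replicate 1 lay below it. Without both end arrays, 3 of the 10 genes had a lower mean with phenolphthalein in place of 6, a shift that the choice of those arrays brings about.

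**Figure D3:**
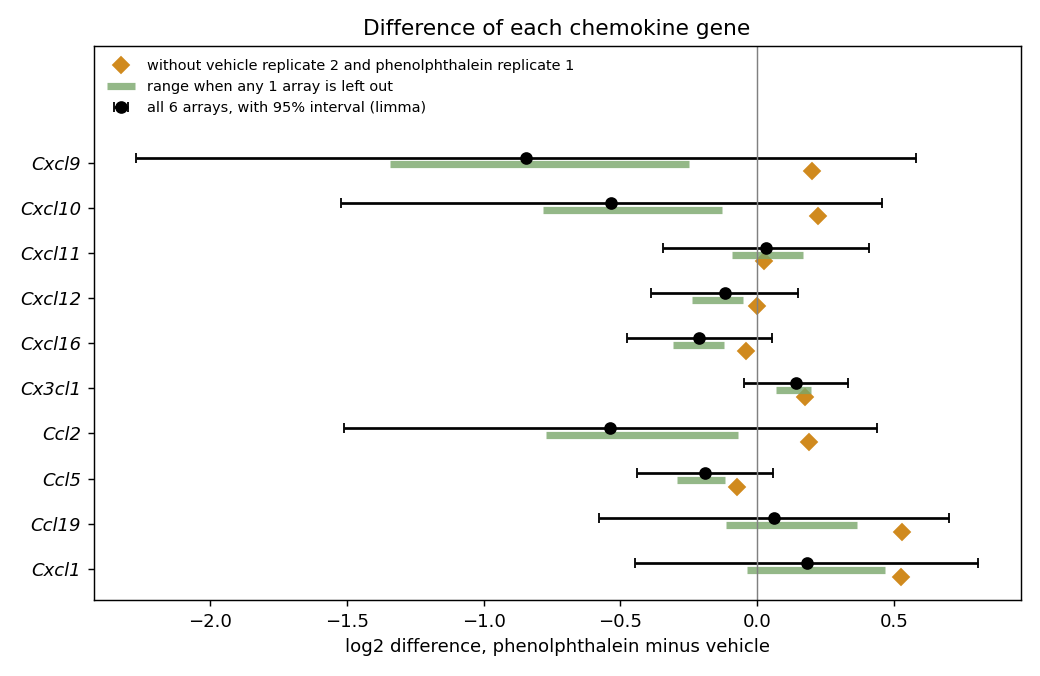
Log2 difference of each gene, phenolphthalein minus vehicle (horizontal axis), with all 6 arrays and the 95% interval of limma (black), the range when any 1 array is left out (green) and the value without vehicle replicate 2 and phenolphthalein replicate 1 (orange). All 10 intervals hold 0, and Cxcl9, Cxcl10 and Ccl2 lie below 0 with all arrays and above 0 without the 2 arrays.

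The named genes whose levels over the 6 arrays were most like the mean of Cxcl9, Cxcl10 and Cxcl11 were sought among 12241 others. That mean followed Cxcl9 (Pearson's r of 0.998) and Cxcl10 (0.967) and not Cxcl11 (0.174). Each ligand is part of the mean, and Cxcl9 had the widest spread, so its high r is in part built in. The highest r belonged to Gna15, a G protein alpha subunit of blood cells (0.996), followed by Smc6 (0.987), Irf1 (0.978), Ttc39c (0.974) and Tlr11 (0.970). Irf1 encodes a transcription factor that interferon gamma induces, and its level was 1.71, 1.97 and 2.01 in phenolphthalein, against 2.05, 2.44 and 1.95 in vehicle. These r describe 6 arrays, were picked as the highest of many, and share the same end arrays.

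The receptors of these chemokines mostly had a lower mean with phenolphthalein. Of 12 listed receptor genes, 9 were tested, of which 7 had a lower mean and 2 a higher one, with a median difference of -0.44. At an unadjusted p under 0.05, 2 were lower and 1 higher, where 4.96% and 3.91% of all items were, and 0 passed after adjustment. Cx3cr1, the receptor of Cx3cl1, stood at -1.09, -0.96 and -1.20 in phenolphthalein and at -0.88, -0.66 and -0.39 in vehicle, with no overlap (difference -0.44, limma adjusted p = 0.497), where Cx3cl1 itself had a higher mean. Ackr3, which clears Cxcl12, was at 0.32, 0.74 and 0.56 in phenolphthalein and at 0.10, 0.28 and 0.33 in vehicle, so its groups overlapped (difference 0.30, limma adjusted p = 0.557). Cxcr3, named after its values were seen because it reads 3 of the ligands, stood at -3.58, -2.97 and -3.04 in phenolphthalein and at -2.58, -1.89 and -2.998 in vehicle (difference -0.71, limma adjusted p = 0.563), with the same 2 end arrays as Cxcl9. Cxcr2, the receptor of Cxcl1, was well above background on 2 arrays, and Cxcr1 and Ccr3 on 0, so none of these 3 was tested. The 9 receptors had a lower mean in 8 cases, with a median of -0.31, without both end arrays.

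Chemokines outside the 10 went in both directions. Of 27 listed, 20 were tested, of which 14 had a lower mean and 6 a higher one (median -0.18). At an unadjusted p under 0.05, 5 were lower and 1 higher, where 4.96% and 3.91% of all items were, and 0 passed after adjustment. Ccl4, an attractant of monocytes and T cells, was at -2.49, -2.47 and -2.62 in phenolphthalein, against -1.93, -1.25 and -1.56 in vehicle (difference -0.95, limma adjusted p = 0.433). Cxcl13, which draws B cells, was at -0.59, -0.45 and -0.35 in phenolphthalein, against 1.95, 1.30 and 0.20 in vehicle (difference -1.62, limma adjusted p = 0.452). Ccl6 had a difference of -0.35, and Ccl11, the eosinophil attractant eotaxin, one of 0.85, where 1 of its 2 probes was higher. These 4 were among the 1 higher and 4 lower genes of the list with groups that did not overlap. Over all items, 6.59% did not overlap on the higher side and 9.11% on the lower side. Without both end arrays, 13 of the 20 had a lower mean, with a median of -0.07, and 1 was lower at an unadjusted p under 0.05. Of 5 tested receptors outside the ligand pairs above, 4 had a lower mean (median -0.16), and Ccr10 was at -0.16 with the smallest p. Leaving out both end arrays gave 3 of these 5 at a lower mean and a median of -0.08.

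Genes listed for interferon gamma signalling and for NF-kB, TNF and IL-1 signalling had lower means for the most part. By brightest probe, all 12 tested genes of interferon gamma signalling had a lower mean (median -0.21), where 54.2% of all items had one. Among all tested probes, however, 2 of 3 for Jak1 and 1 of 2 for Jak2 were higher with phenolphthalein. The differences of the 12 genes ran from -0.74 to -0.00072, so some were close to 0. At an unadjusted p under 0.05, 2 were lower, where 4.96% of all items were, and 0 passed after adjustment. The 2 were Irf9, part of the complex that binds interferon-stimulated response elements (difference -0.61, limma adjusted p = 0.472), and the guanylate-binding protein gene Gbp2 (-0.74, limma adjusted p = 0.535). Ifng itself was well above background on 0 arrays. The mean deviation of the list was -0.44, -0.15 and -0.21 in phenolphthalein and -0.04, 0.12 and -0.07 in vehicle, in the order of the replicates, with the same 2 end arrays as Cxcl9, Cxcl10 and Ccl2. Without both of them, 9 of the 12 had a lower mean and the median was -0.05. Of 11 tested genes of NF-kB, TNF and IL-1 signalling, 8 had a lower mean (median -0.13), and 3 were lower at an unadjusted p under 0.05, namely the inhibitor Nfkbie (-0.28), Nfkb2 (-0.27) and the TNF receptor Tnfrsf1b (-0.38). Without both end arrays, 4 of these 11 had a lower mean and the median was 0.02.

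Proteases that shed or trim chemokines, and their inhibitors, were mixed, with 4 of 9 tested genes at a lower mean and 5 at a higher one (median 0.02). At an unadjusted p under 0.05, Timp3, an inhibitor of sheddases, was higher (difference 0.42), and Mmp2 (-0.39), Mmp9 (-0.68) and the macrophage elastase Mmp12 (-1.98) were lower. Over all items, 3.91% were higher and 4.96% lower at that threshold, and 0 of the list passed after adjustment. Mmp12 was at -5.12, -4.15 and -5.27 in phenolphthalein and at -3.93, -1.02 and -3.64 in vehicle, so vehicle replicate 2 was again far above the rest. Dpp4, the peptidase that trims the ends of Cxcr3 ligands and of Cxcl12, was at 6.04, 5.83 and 5.91 in phenolphthalein and at 6.10, 5.92 and 5.98 in vehicle. Its groups overlapped, and Dpp4 is named here after its values were seen. The list's median turned to -0.10, with 6 of the 9 at a lower mean, without both end arrays.

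Among leukocytes, markers of T and NK cells and of macrophages and monocytes mostly had lower means with phenolphthalein, and 0 passed after adjustment (limma). Neutrophil markers had a median of 0.16, with 2 of 4 at a lower mean, and are given with the remaining lists below. Of the tested T and NK cell markers, 13 of 13 had a lower mean (median -0.51), 4 of them at an unadjusted p under 0.05, Cd8a, Nkg7, Prf1 and Cd3d, and their summed intensity was 2.25 to 2.86 times the 75th percentile in phenolphthalein and 3.16 to 4.26 times in vehicle. Of 12 tested macrophage and monocyte markers, 9 had a lower mean (median -0.42). At an unadjusted p under 0.05, 7 were lower, among them Cd68, Aif1 and Tyrobp, and 1, Mrc1, was higher. The sums of this list were 104 to 115 in phenolphthalein and 132 to 168 in vehicle. Most of each sum was Lyz2, with a level of 6.07 to 6.17 in phenolphthalein and 6.28 to 6.74 in vehicle. Beside these counts of both lists, 4.96% of all items were lower and 3.91% higher at that unadjusted threshold. Ncr1 was well above background on 0 arrays and Cd163 on 1. Without both end arrays, the same numbers of both lists, 13 and 9, had a lower mean, with medians of -0.27 and -0.31. In cortex taken whole, fewer cells of a type and less RNA per cell cannot be told apart, and the part of these cells in the chemokine values was not tested.

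The proximal tubule, which fills most of the cortex, was well represented on every array. Slc34a1, the phosphate transporter of the proximal tubule, was at 7.83 to 7.93 in phenolphthalein and at 7.95 to 8.06 in vehicle. The summed intensity of 8 proximal tubule markers was 1005 to 1111 in phenolphthalein and 1114 to 1137 in vehicle, where 6 of 8 had a lower mean (median -0.11). Of 9 endothelial markers, 3 had a lower mean (median 0.03), with sums of 74.8 to 85.8 in phenolphthalein and 78.8 to 88.5 in vehicle. Of 5 podocyte markers, 2 had a lower mean (median 0.09). The medians without both end arrays were -0.08 for the proximal tubule (7 of 8 lower), 0.09 for endothelium (3 of 9 lower) and 0.17 for podocytes (2 of 5 lower).

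**Figure D4:**
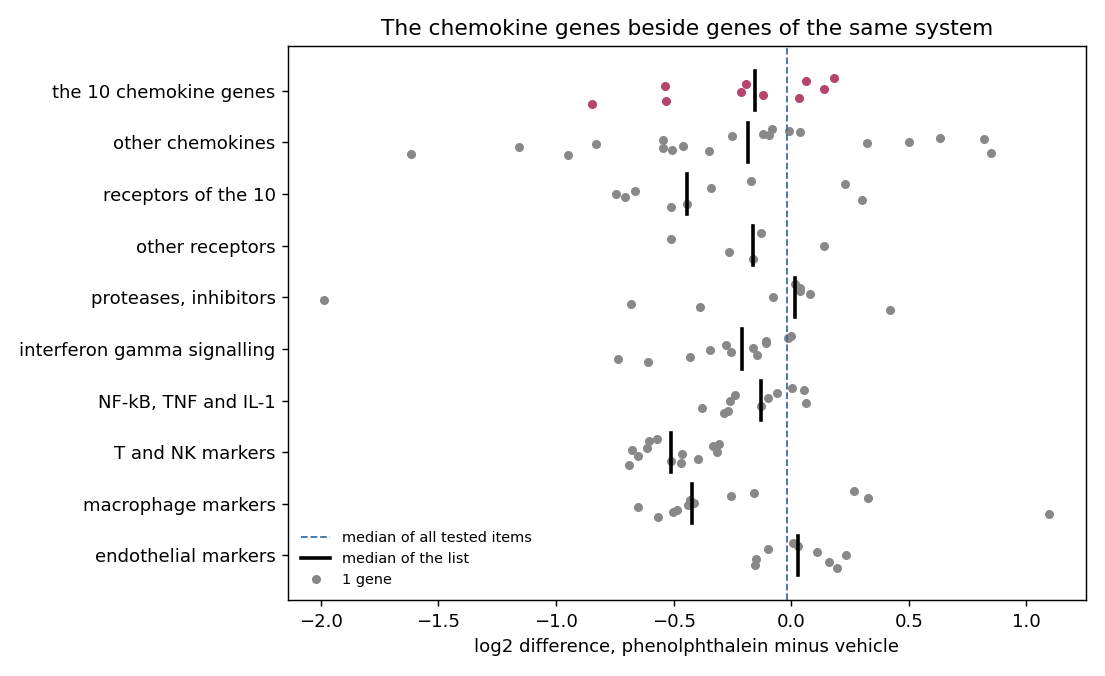
Log2 difference, phenolphthalein minus vehicle (horizontal axis), of each tested gene (points) of the 10 chemokine genes and of lists of related genes and cell markers, with the median of each list (black bar) and of all tested items (dashed line, -0.02). The median of the 10 is -0.15, the receptors lie at -0.44 and the T and NK cell markers at -0.51.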

How the data were processed

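Each array held total RNA of 1 rat, labelled with Cy3. Values came from the processed spot intensity in the deposited scanner output of Agilent Feature Extraction (10.7.1.1 per the file headers, 10.7 per the submitters' processing notes). The headers list a background-subtracted signal and spatial detrending statistics, and name no further correction. The log2 levels were computed here. The deposited value table holds a ratio, the intensity divided by the 75th percentile of the array, as set against the scanner values here (column medians 0.102 to 0.106). Each column matched the scanner values of a different replicate in its own group, so replicate numbers, here those of the scanner output, may be interchanged within a group. None of its columns was left out, and it served as an alternative.

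Outlier spots (2 to 14 per array) were set to missing, and no probe was saturated. Probes were named through unversioned RefSeq accessions with the GRCr8 gene table (27460 of 61657 probes). The array design is annotated on rn4, so no probe or gene coordinates are given. The promoter windows carry the GRCr8 coordinates of the RefSeq table, and gene order is from the same build. The brightest probe stood for a gene, and probes well above background on at least 3 arrays were kept.

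The main test was limma 3.58.1 (R 4.3.3), with lmFit and a two-sided eBayes test with an intensity trend. P-values were adjusted by Benjamini-Hochberg across the 34417 items, with 0.05 as the threshold. The fit was tested on simulated data. With 3 arrays per group, their number limits the precision. The 10 genes and the lists were chosen with earlier results of these data known. Of other genes, the rule named up to 4 per list by smallest p at an unadjusted p under 0.05, or the first where none was, and the 5 most like the mean of the Cxcr3 ligands. Other lists are given by counts, and some genes that the rule selects are not reported here. The normexp alternative used the median spot signal, since the files used here hold no mean spot signal, which the design had named.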

Additional observations from a re-analysis of the deposited data

How the results depend on the processing

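The alternatives were normexp, quantile and median scaling, the deposited value table, no filter or a filter on all 6 arrays, the median of a gene's probes, every probe as an item, no intensity trend, outlier spots kept, the replicate block, the slide as a random block, and each array left out. Of 190 differences of the 10 genes under the 19 alternatives, 179 kept their direction and 11 changed sign. None passed the threshold (limma, adjusted p between 0.483 and 0.998). Several alternatives, such as no intensity trend and the replicate block, alter the SE and cannot change the difference. Part of the 179 was therefore fixed in advance. Leaving out 1 array gave -0.093 to 0.17 for Cxcl11, -0.11 to 0.37 for Ccl19 and -0.036 to 0.47 for Cxcl1. Without both vehicle replicate 2 and phenolphthalein replicate 1, a choice made after seeing the data, Cxcl9 was at 0.20, Cxcl10 at 0.22 and Ccl2 at 0.19. Without these arrays, 3 genes had groups that did not overlap, all on the higher side, where 16.8% of all items did not overlap on that side. These arrays were picked as the ends of the genes' ranges, which by itself raises these values. Leaving out 1 array gave 0 to 2 of the 10 genes with no overlap: Cxcl16 without phenolphthalein replicate 2, Cxcl12 and Cx3cl1 without phenolphthalein replicate 3, Ccl5 without vehicle replicate 1, Cxcl1 without vehicle replicate 2 and Cxcl9 without vehicle replicate 3. Over all items, 9.81% to 12.6% did not overlap on the higher side in these fits and 12.8% to 16.2% on the lower side. It gave 0 to 1 items called higher and 0 to 1 lower over all items. With the replicate block, 0 items and 0 of the 10 genes were called. The SE was then smaller than in the main fit for all of the 10 but Cxcl11 and Cxcl12. For Cxcl16 it was 0.06 in place of 0.11 (limma adjusted p = 0.537). Deviations of animals with the same number had correlations near 0 over all items (-0.0061, -0.015 and 0.025). Since replicate numbers may be interchanged within a group, these values cannot show whether the samples were paired. The consensus correlation within slides was 0.0953.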

Other observations

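The remaining marker lists had few tested members, and 0 genes in any of them passed the threshold (limma). Medians are also given without vehicle replicate 2 and phenolphthalein replicate 1, the arrays at the ends of most ranges. Of 6 dendritic cell markers, 6 had a lower mean with phenolphthalein (median difference -0.22), and 4 had without those arrays (median -0.23). Of 4 B and plasma cell markers, 3 had a lower mean (median -0.23), but 1 had without those arrays and the median turned to 0.16. Of 4 neutrophil markers, 2 had a lower mean (median 0.16), and 2 had without those arrays (median 0.30). Of 3 lymphatic endothelial markers, 1 had a lower mean with all arrays (median 0.28) and 1 without those arrays (median 0.20). Fibroblast and pericyte markers had a lower mean in 2 of 8 cases (median 0.06), and in 3 without those arrays (median 0.05). Lum, a fibroblast marker, was well above background on 3 phenolphthalein and 0 vehicle arrays, so it passed the filter only through phenolphthalein. Its vehicle level was not measured. Set against the dimmest spot well above background on each vehicle array, its bound was 1.09-fold. That bound left the list's median at 0.06 and is no support for a difference. Medulla and collecting duct markers had a lower mean in 3 of 5 cases (median -0.05), and in 3 without those arrays (median -0.15). Of 9 liver markers, 8 had a higher mean (median 0.51), and the median was 0.99 without those arrays. The summed intensity was 4.52 to 23.0 times the 75th percentile in phenolphthalein and 3.72 to 11.2 times in vehicle. The mean deviation of the list was -0.25, 1.74 and 0.14 in phenolphthalein and 0.87, -0.16 and -0.71 in vehicle, in replicate order. Phenolphthalein replicate 2 was thus far above the other phenolphthalein arrays, and it stayed in the fit that gave 0.99.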
